A study of Mus musculus with 2 samples.

Results

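Strong internal peaks of histone H3 lysine 4 trimethylation (H3K4me3) were examined in mouse erythroleukaemia (MEL) cells. A peak was taken when its enrichment value was at least 10, when it lay within the span of a protein-coding gene and when it was more than 5000 bp from the annotated 5′ end of every gene of any biotype. The enrichment value is the authors' measure of a peak's height, on a scale that they do not state. This rule found 908 of 37550 replicated peaks, in 756 host genes. Of the 7303 peaks that met the position criteria, 12.4% reached the value of 10, and of the 12255 peaks that reached 10 anywhere, these were 7.41%. Of all 37550 replicated peaks, 32.6% reached 10. Since the peaks were chosen by the enrichment value, their high values are a description and were not tested.

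H3K4me3 is deposited on nucleosomes beside active transcription starts and is therefore used to find promoters. Many mammalian genes have more than one promoter, and a promoter inside a gene can give a transcript with a different first exon or a shorter protein. In the red cell lineage, GATA1, TAL1, LMO2, LDB1 and KLF1 act together at promoters and enhancers, and enhancers can also carry some H3K4me3.

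The study profiled H3K4me3 by chromatin immunoprecipitation and sequencing (ChIP-seq) in MEL cells, a line of mouse proerythroblast-like leukaemia cells transformed by Friend virus. All cells had been exposed to 2% dimethyl sulfoxide (DMSO), which drives MEL cells towards haemoglobin synthesis, for 5 days. There was 1 group with 2 biological replicates and no untreated sample, so no comparison between conditions was possible. The peak lists held 48026 peaks for replicate 1 and 46950 for replicate 2, without read counts, so the depth behind each value is unknown.

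The sequences of internal starts with a strong peak are shown first, because many of them were rich in CG. They come from the RefSeq promoter table on GRCm38.p6 (mm10), which lists transcript starts. Each run is 230 bases, read 5′ to 3′ on the gene's strand, from 200 bases before the start through the first 30 transcribed bases. Capitals mark every CG and every AGATAA or its reverse complement TTATCT, a form of the motif bound by GATA factors. The outermost listed start of the same gene is shown beside the internal one for 4 genes.
Pde2a internal (chr7:101451052-101451281, plus strand): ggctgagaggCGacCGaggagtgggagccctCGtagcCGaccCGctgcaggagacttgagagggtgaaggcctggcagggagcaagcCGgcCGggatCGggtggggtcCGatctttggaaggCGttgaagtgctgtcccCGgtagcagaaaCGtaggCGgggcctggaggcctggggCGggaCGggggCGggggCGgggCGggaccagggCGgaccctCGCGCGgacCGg
Pde2a outermost (chr7:101421491-101421720, plus strand): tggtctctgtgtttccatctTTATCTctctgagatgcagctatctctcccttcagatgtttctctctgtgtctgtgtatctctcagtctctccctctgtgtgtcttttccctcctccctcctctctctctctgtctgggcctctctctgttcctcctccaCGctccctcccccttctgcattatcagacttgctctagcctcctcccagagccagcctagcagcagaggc
Kdm4c internal (chr4:74251679-74251908, plus strand): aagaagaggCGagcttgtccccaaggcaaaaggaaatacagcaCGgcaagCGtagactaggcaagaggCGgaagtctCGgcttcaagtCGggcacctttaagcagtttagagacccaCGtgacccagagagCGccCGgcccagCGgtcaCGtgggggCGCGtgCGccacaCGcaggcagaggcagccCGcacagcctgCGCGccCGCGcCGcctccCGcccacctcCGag
Kdm4c outermost (chr4:74242297-74242526, plus strand): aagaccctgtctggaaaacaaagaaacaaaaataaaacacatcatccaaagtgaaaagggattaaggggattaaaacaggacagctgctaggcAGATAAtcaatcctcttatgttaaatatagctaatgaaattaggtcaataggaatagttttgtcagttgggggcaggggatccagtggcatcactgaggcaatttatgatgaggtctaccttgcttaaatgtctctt
Steap3 internal (chr1:120265257-120265486, minus strand): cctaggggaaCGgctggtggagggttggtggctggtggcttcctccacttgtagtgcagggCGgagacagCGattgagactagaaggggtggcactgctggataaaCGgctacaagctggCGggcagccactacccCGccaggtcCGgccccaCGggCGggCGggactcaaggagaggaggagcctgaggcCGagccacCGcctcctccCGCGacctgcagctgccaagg
Steap3 outermost (chr1:120271051-120271280, minus strand): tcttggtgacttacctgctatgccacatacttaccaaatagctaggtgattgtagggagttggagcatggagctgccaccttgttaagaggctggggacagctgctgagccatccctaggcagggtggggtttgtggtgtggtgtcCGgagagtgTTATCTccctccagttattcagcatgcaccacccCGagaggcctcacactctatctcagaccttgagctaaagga
Stat5b internal (chr11:100850552-100850781, minus strand): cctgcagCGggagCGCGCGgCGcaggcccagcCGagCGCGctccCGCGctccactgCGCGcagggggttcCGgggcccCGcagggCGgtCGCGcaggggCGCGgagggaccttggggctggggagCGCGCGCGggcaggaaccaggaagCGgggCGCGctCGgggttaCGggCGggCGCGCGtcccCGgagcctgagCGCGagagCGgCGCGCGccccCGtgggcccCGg
Ldb1 internal, upstream of the pair (chr19:46039592-46039821, minus strand): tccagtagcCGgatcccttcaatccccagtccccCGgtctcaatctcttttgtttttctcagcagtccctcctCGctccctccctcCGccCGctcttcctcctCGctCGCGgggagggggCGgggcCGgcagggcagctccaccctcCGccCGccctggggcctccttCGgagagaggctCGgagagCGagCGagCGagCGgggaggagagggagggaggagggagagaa
Ldb1 internal, downstream of the pair (chr19:46037041-46037270, minus strand): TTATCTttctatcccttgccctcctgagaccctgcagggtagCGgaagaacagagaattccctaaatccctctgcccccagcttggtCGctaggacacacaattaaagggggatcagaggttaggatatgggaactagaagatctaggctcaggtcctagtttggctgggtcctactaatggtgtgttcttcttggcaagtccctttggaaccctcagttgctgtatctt
Ldb1 outermost (chr19:46045282-46045511, minus strand): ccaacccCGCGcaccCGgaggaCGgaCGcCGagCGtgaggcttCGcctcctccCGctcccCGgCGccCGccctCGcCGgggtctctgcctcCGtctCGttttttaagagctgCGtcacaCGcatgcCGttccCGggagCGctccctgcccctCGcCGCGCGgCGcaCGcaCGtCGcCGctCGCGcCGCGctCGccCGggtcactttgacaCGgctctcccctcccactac
Aldh1a1 internal (chr19:20601768-20601997, plus strand): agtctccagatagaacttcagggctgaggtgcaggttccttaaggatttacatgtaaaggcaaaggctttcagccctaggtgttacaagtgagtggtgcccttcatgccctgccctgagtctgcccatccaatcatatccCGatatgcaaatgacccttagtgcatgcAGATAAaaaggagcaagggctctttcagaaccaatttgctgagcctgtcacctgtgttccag

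The internal window held 23 CG dinucleotides at Pde2a, 23 at Kdm4c and 14 at Steap3. The outermost windows of the same genes held 1, 0 and 2. Ldb1 was the reverse, with 37 at its outermost start and 18 and 2 at its internal ones. Stat5b had 41 CG dinucleotides in its window, and its internal start was also its outermost listed one. Aldh1a1, with 1 CG and an AGATAA ahead of the start, and the downstream Ldb1 start, with 2 CG and a TTATCT, were poor in CG. Pde2a also had listed internal starts with 5 and 13 CG, so the internal window shown for it held the most. The genes shown were chosen with their sequences in view.

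Strong internal peaks were often at a listed transcript start of their host gene. Of the 739 peaks whose host gene is in the start table, 328 (44.4%, 95% Wilson interval 40.8 to 48.0) were within 500 bp of a listed start, and all 328 of these starts belonged to the host gene itself. The peak covered the start in 206 cases and lay beside it in 122. Among the weak internal peaks, those under 10 that met the same position criteria, 288 of 5082 (5.67%) were at a listed start of any gene and 281 (5.53%) at one of the host gene. Of the base pairs open to such peaks, 0.281% were within 500 bp of one. That share counts single bases, while a peak counts when any part of it is within 500 bp. The shares are therefore not on the same footing, and a wider peak reaches a start more easily. Strong peaks had a median width of 1260.5 bp and weak ones of 431 bp, and the part of width was not tested. Neighbouring peaks can share a start, and 44 listed starts had 2 or more strong peaks, so the interval treats as separate some peaks that are not. The other 169 strong peaks were in genes that the table does not hold.

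The share of peaks at a listed start was higher at higher enrichment values. In the replicated set it was 1.57% under 3, 2.23% from 3 to 5, 6.29% from 5 to 7 and 20.1% from 7 to 10. Above the threshold it was 40.1% of 539 peaks from 10 to 15, 56.9% of 160 peaks from 15 to 20 and 52.5% of 40 peaks of 20 and over. The replicates' own peak sets gave close shares up to 20 and parted above it, with 41.2% of 34 peaks in replicate 1 and 80.6% of 36 in replicate 2.

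**Figure D1:**
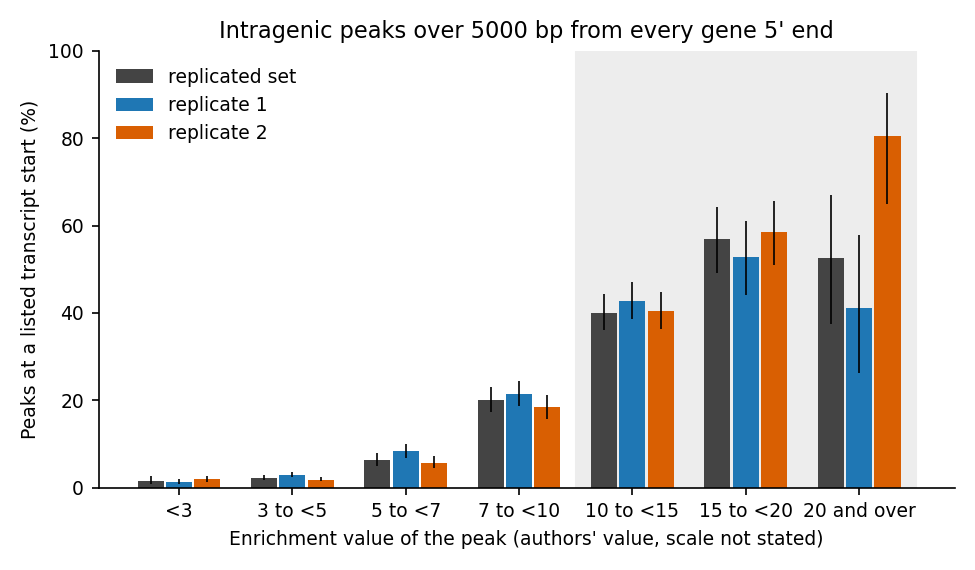
The share of intragenic peaks over 5000 bp from every gene 5′ end that lay within 500 bp of a listed transcript start, by enrichment value, in the replicated set and in each replicate's own set. Bars start at 0, lines are 95% Wilson intervals, and grey marks the range of the strong peaks; the bars climb from 1.57% under 3 to 56.9% between 15 and 20 in the replicated set, and the replicates part in the top class (41.2% and 80.6%).

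The internal start was in some genes the outermost one listed. In 273 host genes a strong peak was at a listed start of that gene, and in 121 of them this was the outermost start in the table. In the other 152 a further listed start lay nearer the 5′ end. In 135 of the 273 genes every listed start was more than 5000 bp from the 5′ end of the gene span, and 107 had a start within 100 bp of that end. Seen from the starts, 1822 listed start sites met the position criteria, of which 26.3% had a replicated peak within 500 bp and 17.4% had one of at least 10.

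Summits of the strong internal peaks lay more often downstream of the listed start than upstream. The median summit was 179 bp downstream of the start in replicate 1 (326 peaks, 63.8% downstream) and 141 bp downstream in replicate 2 (327 peaks, 67.6% downstream). For strong peaks at gene 5′ ends the medians were 192 bp (4876 peaks, 67.0% downstream) and 142 bp (4892 peaks, 68.8% downstream). Summit positions were not used to choose the peaks, although peaks within 500 bp of the start can only have summits near it.

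**Figure D2:**
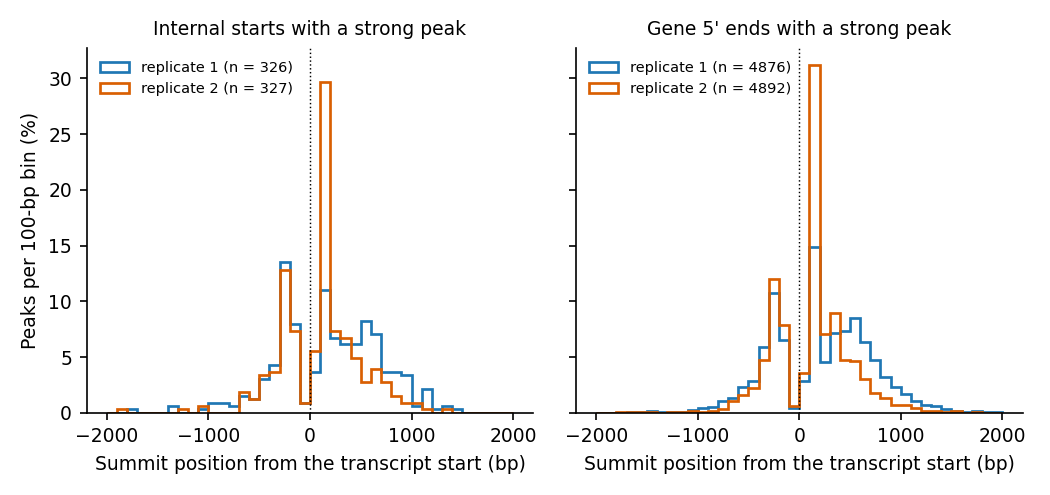
Summit position relative to the listed transcript start, in base pairs along the gene's strand, for strong internal peaks (left) and strong peaks at gene 5′ ends (right), as the percent of peaks in each 100-bp bin and drawn separately for each replicate. Few summits are at the start itself, and both panels have a higher side downstream, with medians of 179 and 141 bp on the left and 192 and 142 bp on the right.

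Internal starts with a strong peak were rich in CG. Over the 300 bases at the start, 250 before it and 50 after, the CpG observed-to-expected ratio had a median of 0.728 at 276 internal starts with a strong peak (quartiles 0.531 and 0.892). It was 0.380 at 163 internal starts with a weak peak and 0.257 at 1342 with no replicated peak. A ratio of at least 0.6, a usual mark of a CpG island, was found in 69.9%, 30.1% and 11.3% of these starts. Listed starts within 100 bp of a gene's 5′ end had a median of 0.546, and for the genes with a strong peak at an internal start it was 0.588 over 107 such starts, of which 8.41% held AGATAA on either strand. Starts at 5′ ends were taken with or without a peak, so they are unlike the internal starts chosen for a strong one.

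Short motifs differed along with base composition. GGGCGG, read on both strands, was in 64.1% of the internal starts with a strong peak, 20.0% of those with no peak and 35.7% of all 32850 listed starts. AGATAA, also on both strands, was in 7.61%, 11.6% and 11.2% of the same 3 sets, and TATAAA in 3.26%, 15.8% and 13.6%. GC content had medians of 61.7%, 50.3% and 52.7% in these sets, and its part in the motif shares was not tested. GGGCGG itself holds a CG, so its count is tied to the CpG ratio.

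**Figure D3:**
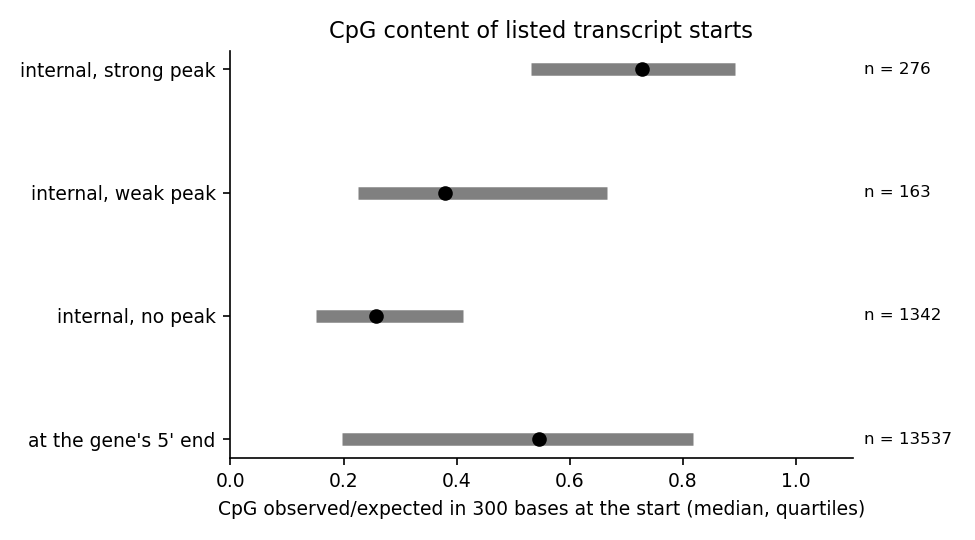
CpG observed-to-expected ratio in the 300 bases at listed transcript starts, with the median as a point and the quartiles as a bar, for internal starts with a strong, weak or no replicated peak and for starts within 100 bp of the gene's 5′ end. Internal starts with a strong peak have the highest median (0.728), above the starts at gene 5′ ends (0.546) and the internal starts with no peak (0.257). The starts at gene 5′ ends were taken with or without a peak.

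Every strong internal peak overlapped a peak in both replicates, as did 5612 of the 6395 weak ones. The replicated set derives from the pooled and both replicates' sets, and strong peaks were chosen by value. This overlap is therefore a description and no separate check. The median enrichment value was 12.8 in the replicated set, up to 29.3, with medians of 11.8 in replicate 1 and 12.7 in replicate 2 (12.3 ± 0.624, SD, n = 2). Both replicates reached 10 at 546 peaks (60.1%), 1 replicate did at 306 and neither did at 56. The replicates differed by more than 2-fold at 34 peaks (3.74%), of which 13 were higher in replicate 1 and 21 in replicate 2. The widest gap was in Zbtb46, a zinc finger gene, with 5.13 in replicate 1 and 21.4 in replicate 2. The largest gap the other way was in Dcun1d5, whose values were 20.2 and 7.44.

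The replicates leaned differently by base composition. Of the 328 peaks at a listed start, the 109 at starts of lowest GC content (38.3% to 56.7%) were higher in replicate 2 in 44.0% of cases. The share was 71.8% among the next 110 (57.0% to 67.0%) and 69.7% among the 109 of highest GC content. Median values were 12.69 and 12.998 in replicates 1 and 2 in the lowest class, against 12.1 and 14.6 in the highest. What part GC content plays in values of single peaks was not tested.

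**Figure D4:**
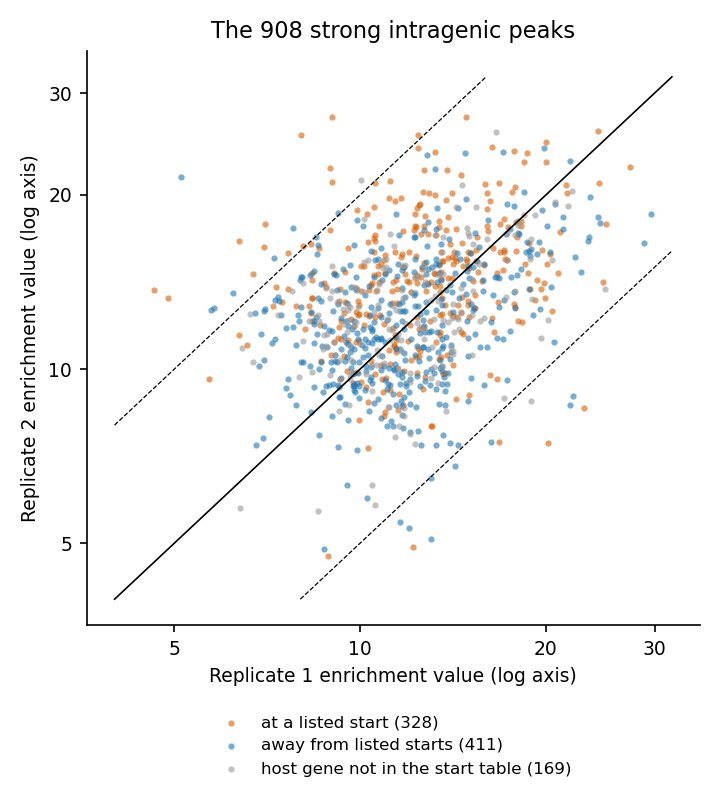
Enrichment values of the 908 strong internal peaks in replicate 1 (x) and replicate 2 (y), both on log axes, coloured by whether the peak was within 500 bp of a listed transcript start. The solid line marks equal values and the dashed lines a 2-fold difference, past which 34 peaks lie; peaks at a listed start lie more often above the line (203 of 328) than peaks away from one (207 of 411).

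Peaks at a listed start were wider and had higher values than the others. Their median width was 1489 bp and their median value 13.6, against 1155 bp and 12.3 for the 411 peaks away from one. Over all 908 the median width was 1260.5 bp, from 283 to 5321 bp, next to 431 bp for weak internal peaks and 1403 bp for the 8936 strong peaks within 1000 bp of a protein-coding 5′ end. The widest were in Dnajc6 (5321 bp), Elf1 (5051 bp), Tnrc6b (4955 bp), Pde4d (4943 bp) and Slc41a3 (4708 bp). Elf1 encodes an ETS transcription factor and Tnrc6b a partner of Argonaute in microRNA silencing. A listed start lay within the peak in 4 of these 5 genes, all but Pde4d.

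The peaks lay a median of 27866 bp from the host's 5′ end (quartiles 11985 and 69059 bp). Host genes were long, with a median of 76252 bp against 27994 bp for all protein-coding genes in which a peak could meet the criteria. As a share of gene length the median position was 44.0%, at 38.7% for peaks at a listed start, 47.3% for those away from one and 46.4% for weak internal peaks. The stretch from 25% to 50% of the gene held 34.1% of the strong peaks, and 40.5% of those at a listed start.

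The highest value was in Ipo5, which encodes an importin that carries ribosomal proteins and histones into the nucleus. This peak (chr14:120911559-120913184) had 24.3 and 25.8 in replicates 1 and 2 and lay 365 bp from the only start listed for the gene, while the 5′ end of the gene span was not marked. "Marked" here means that both replicates had a peak within 1000 bp of the 5′ end. Pom121, a nuclear pore protein, was of the same form, with 20.0 and 22.8 at a peak 81 bp from its listed start and no marked 5′ end. The uncharacterised gene 3830403N18Rik on chromosome X had 21.9 and 22.9 at a peak 523 bp from its listed start, just past the window.

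Pde2a, a phosphodiesterase that breaks down cyclic nucleotides, had a peak (chr7:101450532-101451241) that ended just short of the CG-rich internal start shown above and covered another listed start, whose window held 13 CG. Its values of 14.9 and 27.3 are 21.1 ± 8.78 (SD, n = 2), and the outermost start with 1 CG was not marked. Aldh1a1, which makes retinoic acid from retinaldehyde, had 25.02 and 17.82 at chr19:20600515-20601885, 83 bp from the CG-poor start shown above. Mier1, a chromatin corepressor, differed from these: the internal peak had 21.5 and 20.8 and the gene's 5′ end had 22.5 and 23.1, so both were marked at like height. Scoc, an autophagy and Golgi protein, had 18.4 and 22.8 at a peak 186 bp from a listed internal start.

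High peaks were also found far from any listed start. Cdh12, a neuronal cadherin, had 29.6 in replicate 1 and 18.5 in replicate 2 at chr15:21357167-21358572, 245715 bp from the nearest listed start. Dgkb, a diacylglycerol kinase best known from brain, had 28.9 and 16.5 at chr12:38242028-38243233, 361854 bp away. Neither gene had a marked 5′ end, and both peaks were higher in replicate 1. Foxn3, a forkhead repressor, had 24.3 and 18.3 inside the gene and 26.3 and 23.9 at its 5′ end. Sgpp1, which removes phosphate from sphingosine 1-phosphate, had 23.5 and 19.8 inside and 19.7 and 23.7 at its 5′ end. Nod1, an innate immune receptor, had 20.3 and 15.9 inside and 17.7 and 18.3 at its 5′ end, so that in these 3 genes the replicates' values inside and at the 5′ end overlapped, although Foxn3 was higher at its 5′ end in each replicate.

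For Ak5, an adenylate kinase also among the highest, the table gives no start. Its internal peak had 22.0 and 20.3 in replicates 1 and 2, and its 5′ end was not marked.

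Host genes did not have a marked 5′ end more often than other genes. It was marked in 341 of 754 host genes with a known strand (45.2%, 95% Wilson interval 41.7 to 48.8), against 47.1% of all protein-coding genes with a known strand and 53.1% of the 15710 protein-coding genes in which a peak could meet the criteria. For 413 host genes the internal peak therefore stood without a marked 5′ end of the gene span. A listed start further inside the span was not examined in this count. It could also be the start at the internal peak itself, as in Ipo5. In 135 of the 273 genes with a strong peak at their own listed start, every listed start was over 5000 bp from that end. Where both could be compared, over 339 genes, the strongest internal peak was higher than the 5′ end in both replicates in 127 genes and lower in both in 100. The replicates disagreed in the other 112, and median values were 12.5 for the internal peaks and 12.6 for the 5′ ends. The internal peaks had been chosen for a high value, and the strongest of each gene was taken. A 5′ end needed only a peak in both replicates, of any height. These counts and medians depend on that choice, so they are a description and do not show which side is higher in general.

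A single strong internal peak was found in 618 host genes, 2 in 118, 3 in 16 and 4 in 4 genes. The 756 host genes were 3.45% of all protein-coding genes and 4.77% of the 15855 protein-coding genes in which a peak could meet the criteria. The genes with 4 peaks were Zfhx3 and Rere, which encode transcriptional regulators, Srpk2, a kinase of splicing factors, and Pde4d, a phosphodiesterase. Neighbouring peaks less than 1000 bp apart made up 89 pairs, and joining them left 819 sites. In Ap5b1 and Anapc15, 3 peaks lay side by side at 1 start. Chd9, a chromatin remodeller, instead had 3 separate peaks, all away from its listed starts, with 17.5, 13.4 and 20.0 in replicate 1 and 17.4, 14.6 and 17.7 in replicate 2.

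The genes with 3 peaks also included Bcor and Cbx7, of the Polycomb system, Casz1, Rreb1, Ccnd3, Macf1, Luzp1, Slc8a1, Trim14, Oxr1, Fam13b, Tacc1 and Iqschfp, whose span overlaps those of Iqcj and Schip1. Ccnd3 encodes cyclin D3, which sets the number of divisions of maturing erythroblasts. Of its 3 peaks, a pair was at a listed internal start and reached 12.5 and 17.1 in replicates 1 and 2 at the taller of them (chr17:47593462-47595538), and the third lay nearer the 5′ end. Rreb1, a zinc finger factor, had 16.3 and 24.2 at its peak on a listed start and lower values at its other 2 peaks.

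Known red cell genes checked the identity of the line. Of 8 defining erythroid genes, 7 had a marked 5′ end, with 20.7 and 21.3 at Klf1 and 20.9 and 15.01 at Alas2. The lowest of the 7 were Slc4a1, with 3.97 and 4.51, and Nfe2, with 4.40 and 7.25. The exception, Gata1, had no peak within 1000 bp of the end of its span but a strong one inside the gene, described below. The 5′ end was marked in 2 of 19 granulocyte and macrophage genes, 3 of 20 B, T and NK cell genes and 6 of 18 megakaryocyte and stem cell genes. Of all protein-coding genes with a known strand, 47.1% had a marked 5′ end. The lists are short, and their counts were not tested against this share.

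Across 9 lists holding 225 genes, 20 genes had a strong internal peak, with 23 peaks in all. Erythroid transcription factors had them in 5 of 27 genes with room for such a peak, erythropoietin and Kit signalling in 6 of 26, chromatin regulators in 4 of 36, and red cell membrane genes in 2 of 24. Heme, iron and globin genes had 1 of 19, late red cell maturation genes 0 of 15, granulocyte and macrophage markers 1 of 8, B, T and NK cell markers 0 of 17, and megakaryocyte and stem cell markers 2 of 12. The lists are short, and against the 4.77% of all such genes these counts were not tested. Of the 18 peaks whose gene is in the start table, 5 were at a listed start. The 5′ end was marked in 10 of the 20 genes.

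Among the erythroid transcription factors, Stat5b had the highest internal peak. STAT5B carries the erythropoietin receptor's signal to the nucleus. Its peak (chr11:100848536-100851152) had 27.4 and 22.3 in replicates 1 and 2 (24.9 ± 3.56, SD, n = 2) and covered the CG-dense start shown above. This start is also the outermost one listed for the gene and lies 8423 bp inside the span. The 5′ end of the gene span had 6.01 and 16.5, below the internal peak in both replicates.

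LMO2, the bridging protein of the GATA1 and TAL1 complex, was encoded by a gene with an internal peak of 3423 bp (chr2:103968164-103971586). It had 21.7 and 19.2 in replicates 1 and 2, and the 5′ end of the span had 4.16 and 5.45. Ldb1, whose product joins LMO2 and loops enhancers to promoters, had 17.1 and 18.2 at a peak that covers the downstream listed start shown above (chr19:46036702-46039311). The upstream internal start of the pair, with 18 CG in its window, was also within 500 bp of this peak. The 5′ end of the Ldb1 span was not marked, but the outermost listed start of the gene lay 2834 bp inside that end. This is past the window used for a marked end, so a peak at the outermost start was not examined. Tfdp2, an E2F partner needed for late erythroblast divisions, had 18.04 and 12.09 inside and 11.6 and 14.8 at its 5′ end, so these overlapped. The internal Tfdp2 peak lay beside the outermost listed start of the gene, which is 62459 bp inside the span. Nfia, a nuclear factor I gene, had 13.4 and 10.7 at an internal peak without a marked 5′ end.

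In the membrane and iron genes, Dmtn had the clearest internal peak. Dematin bundles actin in the red cell skeleton, and its gene had 18.04 in both replicates at a peak of 3644 bp (chr14:70624067-70627710), with 8.59 and 10.4 at the 5′ end. Add2, which encodes beta-adducin, had 11.6 in replicate 1 and 5.44 in replicate 2. Steap3, the reductase that turns ferric into ferrous iron in the transferrin cycle, had 11.4 and 15.9 at a peak over the CG-rich internal start shown above (chr1:120263443-120265302). Its 5′ end had 3.58 and 4.08, lower in both replicates.

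The signalling genes were mixed. Gab1, an adaptor downstream of growth factor receptors, had 16.4 and 13.4 at chr8:80867713-80869265 and no marked 5′ end. Smad1, which relays BMP signals, had a pair of internal peaks, the taller with 13.8 and 13.7, and no marked 5′ end. Pik3r1, the regulatory subunit of PI 3-kinase, had 8.99 and 11.6 inside and 13.9 and 20.1 at its 5′ end, lower inside in both replicates. Ptpn6, the phosphatase that turns off the erythropoietin receptor, had 8.41 and 12.1 inside and no marked 5′ end.

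Of the chromatin regulators, the deacetylase gene Hdac4 had the highest peak, with 24.4 and 17.9 at chr1:92178812-92179823, 518 bp from a listed start and so just past the window. Kdm4c, a demethylase of H3 lysine 9, had 8.63 and 10.3 beside the CG-rich internal start shown above, and its CG-free outermost start was not marked. Arid1b, a SWI/SNF subunit, had a pair of adjoining peaks, the wider with 10.5 and 11.7. Its marked 5′ end was higher in both replicates, with 11.9 and 14.5.

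Genes of other blood lineages also had internal peaks. Mecom, a stem cell factor, had widely separate ones starting at chr3:29958072 and chr3:30421618, without a marked 5′ end. The first of these was the taller, with 19.6 and 12.7. Meis1, a homeobox factor of stem cells and megakaryocytes, had 11.6 and 9.41 inside and 11.3 and 12.3 at its 5′ end. Spi1, which encodes the myeloid factor PU.1 and is activated by Friend virus insertion in many MEL lines, had 9.25 and 8.47 at chr2:91096321-91099145. Its 5′ end had a peak in replicate 2 alone, at 3.56.

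**Figure D5:**
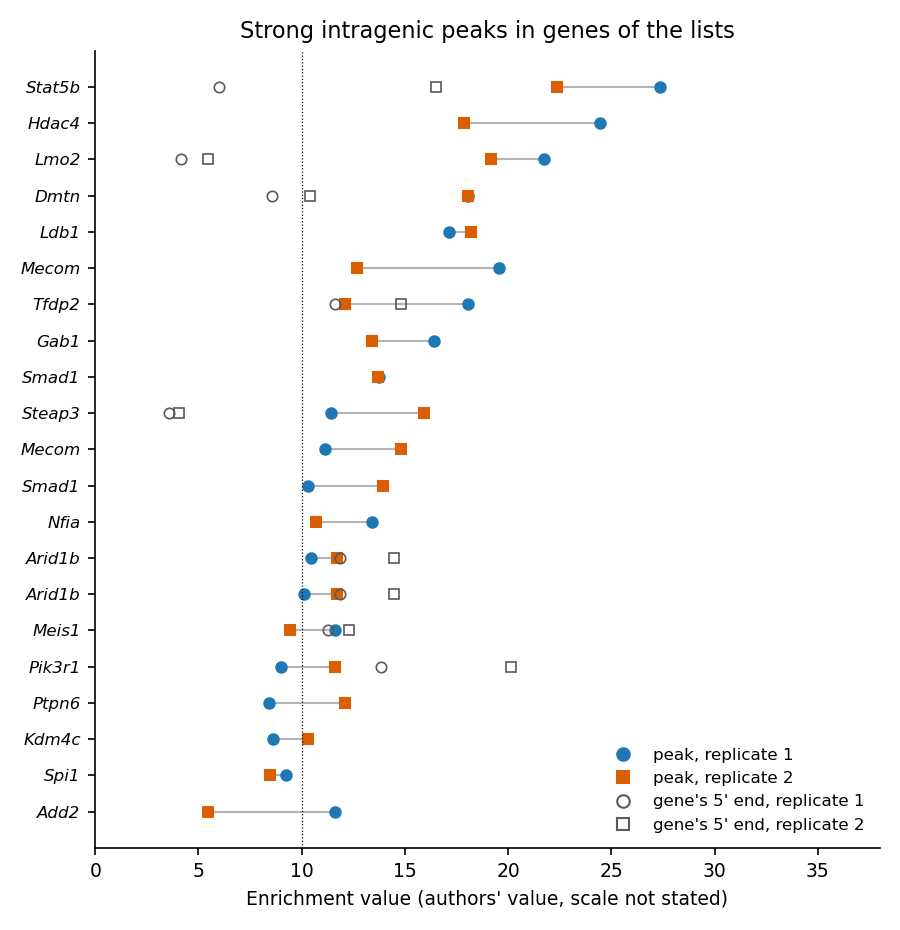
Enrichment values of 21 of the 23 strong internal peaks in genes of the lists, ordered by their mean, with filled symbols for the internal peak and open symbols for the gene's 5′ end where both replicates had a peak there (circles replicate 1, squares replicate 2). Stat5b, Lmo2, Dmtn and Steap3 have both filled symbols to the right of the open ones, while Arid1b and Pik3r1 have them to the left in each replicate.

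Gata1 shows what the distance criterion left out. Its peak (chrX:7964428-7967887) had 21.07 and 15.02 in replicates 1 and 2 and ended 23 bp from the listed start of Gata1. It covered the 5′ end of the long noncoding RNA Gm52419, so it was not among the 908. In all, 260 peaks met every other criterion for protein-coding ends and were left out for the end of a noncoding gene. For 97 of them the strand of that gene was unknown and both its ends were treated as possible 5′ ends. Of the 203 whose host is in the start table, 97 (47.8%) were within 500 bp of a listed start of the host. Counting starts of any gene, that of the noncoding gene included, it was 61.1%. Ank1, which encodes the ankyrin that ties spectrin to band 3, was left out in the same way for Gm51563, with 24.05 and 16.05 at chr8:23035112-23037214. Separate peaks in Nfia, starting at chr4:97751226 and chr4:97777653, were also left out in this way.

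The peaks just inside the threshold were in Tsc22d3 and Tbc1d1 (both 10.0032), Pde4d (10.0128), Clgn and Fam228a (both 10.0211). Those just outside were in Tbc1d19 (9.99715), C77080 and Pde3b (both 9.99232), Myct1 (9.95972) and the overlapping genes Med12l and P2ry14 (9.95146). Replicate values on the 2 sides overlapped: they ran from 5.81 to 12.4 inside and from 6.40 to 14.1 outside.

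An older peak set of the same study, on the mm9 build and with its own value scale, showed where such peaks sit against transcripts of the GENCODE M1 annotation. Host genes were matched by symbol, and no coordinate was carried between builds. Of 743 host genes found there, 568 (76.4%) had an internal peak more than 5000 bp from every gene's 5′ end, as did 4.74% of the other protein-coding genes. The same cells gave both sets, so this is no separate replication. The other genes were taken at any length and include genes too short for an internal peak, whereas every host gene had room for one. Of the 835 older internal peaks in host genes, 274 (32.8%) were within 500 bp of an annotated transcript start. The share was 71.4% for host genes with a strong peak at a listed RefSeq start and 17.3% for the other host genes in that table. The centre of the peak was in an exon for 13.1% of the 835.

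In that older set the internal peaks of Lmo2, Dmtn, Steap3, Pik3r1, Spi1 and Tfdp2 covered an annotated transcript start. Those of Gab1, Smad1, Nfia, Mecom, Meis1 and Arid1b, all with intronic centres, did not, nor did those of Cdh12, Dgkb, Nod1, Sgpp1 and Ak5. Sequences of 230 bases centred on the summit are given for a gene with an annotated start there, Lmo2, and for one without, Gab1, from NCBIM37 (mm9) and on the gene's strand, with capitals as before.
Lmo2, mm9 (chr2:103809326-103809555, plus strand): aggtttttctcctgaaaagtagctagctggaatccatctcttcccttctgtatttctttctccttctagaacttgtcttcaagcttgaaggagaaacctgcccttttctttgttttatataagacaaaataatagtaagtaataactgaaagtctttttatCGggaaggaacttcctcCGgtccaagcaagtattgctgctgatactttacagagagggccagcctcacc
Gab1, mm9 (chr8:83392691-83392920, minus strand): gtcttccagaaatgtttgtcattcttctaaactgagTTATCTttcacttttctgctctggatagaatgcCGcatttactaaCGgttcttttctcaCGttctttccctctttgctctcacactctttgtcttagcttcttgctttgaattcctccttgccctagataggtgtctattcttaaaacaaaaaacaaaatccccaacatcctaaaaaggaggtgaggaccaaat

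Both windows were poor in CG, with 2 at Lmo2 and 3 at Gab1. Gab1 held a TTATCT, and Lmo2 held neither form. Over the 300 bases at the summit, older internal peaks of host genes away from annotated starts held AGATAA on either strand in 127 of 561 cases (22.6%), against 24 of 274 (8.76%) at annotated starts. It was in 8.55% of the 9053 older peaks at protein-coding 5′ ends, and in 26.6% of older internal peaks away from starts in genes that are not hosts. The median CpG ratio was 0.369 away from starts and 0.551 at them, and the median GC content 46.0% and 52.7%. At the older peaks at protein-coding 5′ ends the median CpG ratio was 0.650, above that of the internal peaks at annotated starts. The part of base composition in the motif's share was not tested.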

How the data were processed

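H3K4me3 ChIP-seq peaks of 2 biological replicates of 1 group were used: each replicate's set, the pooled set, the replicated set (all mm10) and an older mm9 set. Per the notes deposited beside the files, the replicated set derives from the pooled and both replicates' sets; the aligner and peak caller are not given in the sources used here. Column 7 is the authors' deposited score per peak, called enrichment value here, of unstated scale. The deposited -log10 p and q values served only as an alternative filter (q of at least 5). Nothing says how the replicates' cultures were kept apart.

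Members followed the rule given in the report. Gene spans came from RefSeq (GRCm38.p6). Strand came from the RefSeq promoter table for 27025 of 49943 genes and from GENCODE M1 names for 8747 (symbol) and 976 (synonym); the other 13195 counted with both ends. Listed starts (32850) are those of the promoter table, which has gaps. A replicate's value is that of its highest peak overlapping the member by at least 1 bp. No test was run, since the value chose the members and there is 1 group. Intervals are 95% Wilson and cover counting only. The scripts were tested on simulated data. Tools were Python 3.11.15 with pandas 2.3.3, numpy 2.4.6, scipy 1.17.1, pysam 0.24.0 and matplotlib 3.10.9.

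Genes named were the 15 highest and 5 widest members, those nearest the threshold, list genes and hosts of 3 or more; Zbtb46 and Dcun1d5 (largest replicate gaps) and the genes left out for noncoding ends were chosen after their values were seen. Members and lists were chosen with earlier results of these data known. A few members that this rule names are not reported here. Exons of mm10 were not used here.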

Additional observations from a re-analysis of the deposited data

How the results depend on the processing

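The number of strong internal peaks was 237 with a minimum of 15 and 1457 with a minimum of 8, so it depends on the threshold. Leaving out replicate 1 gave 886 and leaving out replicate 2 gave 824; these sets overlapped 80.1% and 73.1% of the 908 peaks. Other distances and ways of counting 5′ ends gave 622 to 1192, within 1.5 times. The pooled set gave the same 908 peaks, but the replicated set derives from it, so this is no separate check. The q filter also gave 908, but it could remove none, since the lowest -log10 q of these peaks was 23.6. The share of host genes with a marked 5′ end stayed between 42.0% and 47.5% under the 7 alternatives. The median of the mean values, 12.2, was 12.7 without replicate 1 and 11.8 without replicate 2, and the median width was 1200.5 bp and 1095 bp.

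The share of strong peaks at a listed start, whose alternatives were chosen after seeing the data, was 27.9% where the peak had to cover the start, 56.0% with a minimum of 15 and 36.9% with a minimum of 8. It was 46.8% without replicate 1 and 44.6% without replicate 2, and 41.8% with neighbouring peaks joined. In the older set the share at an annotated start was 46.9% among the 418 peaks at or above the median value. Of 42 named peaks, 41 kept their mean within 1 SD at a reciprocal overlap of 50%, and 1 had no overlap of that size. No paired analysis was possible because there is 1 group and no test. Limits are the unknown depth, gene tables with gaps, the absence of an input track or RNA measurement here, and a scale of values that is not stated.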
